A study of Homo sapiens with 2 samples.

Results

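The protein kinase genes PRKCB, PRKACB, PKN2, PAK2 and STK3, each with a SETMAR-HA peak inside an intron, were examined. They are not the full set of kinase genes tied to SETMAR, since the paper also lists NTRK2 and MAP3K20 among its SETMAR-associated genes. Neither of those was searched here, nor were other kinases outside the AGC and STE groups. The 6 peaks examined were taken from the 764 peaks of the ChIP list because they lay inside the bodies of the 5 genes. All 6 are among the 330 peaks that the deposited annotation places in introns. The genes were thus chosen by the presence of a called peak in these same data, which is a description and not a finding. PRKCB held 2 peaks, and the other genes held 1 each. The chromatin came from HAP1, a nearly haploid human leukaemia line. In these cells the SETMAR gene had been disrupted by CRISPR/Cas9, and a polyclonal population carrying a doxycycline-inducible SETMAR with an HA tag was grown. Doxycycline was given 24 h before the ChIP, and doses of 0.2, 0.5, 1 and 2 µg/ml are named in the labels, which do not tell which dose these cells received. The list comes from 1 anti-HA ChIP sample, and the list of 81 input peaks comes from 1 sample of the same cells without antibody. Both lists give positions on GRCh38 (hg38) and no measure of signal. The depth behind each peak is therefore unknown, and no spread between replicates can be given.

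SETMAR is a fusion of a SET histone methyltransferase domain with a transposase of the Hsmar1 mariner transposon. Its transposase part recognises the inverted terminal repeats (ITRs) that flank Hsmar1 copies and their short MADE1 derivatives. Protein kinases transfer phosphate from ATP to other proteins. PRKCB, PRKACB and PKN2 belong to the AGC group, whose members respond to lipid, cAMP and small GTPase signals, while PAK2 and STK3 belong to the STE20 family of the STE group, which acts in cytoskeletal, stress and Hippo signalling.

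All 6 peaks held an ITR with at most 1 mismatch to the consensus. An ITR was called where the 19 letters GGTGCAAAAGTAATTGCGG matched the reference genome on either strand with at most 3 mismatches, and it was assigned to a peak when it lay within 500 bp of it. For comparison, 99.9% of the 764 peaks and 99.7% of the intron peaks had an ITR with at most 3 mismatches. Both PRKCB peaks had an ITR with 0 mismatches, and the best ITR of the other 4 peaks had 1 mismatch. Among the 330 intron peaks, the best ITR had 0 mismatches in 139 (42.1%) and 1 mismatch in 160 (48.5%). Substitutions give the consensus letter, its position (the first letter at the 5′ end is 1) and the letter of the site. The substitution was A7T in PRKACB and G18A in both PKN2 and PAK2.

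Paired ITRs in inverted orientation, as in MADE1 elements, were found in 2 of the 6 peaks, in PRKCB peak 2 and in STK3, against 57.3% of the 330 intron peaks. In PRKCB peak 2 the partner carried A12C and C17T, and both ITRs together spanned 66 bp. In STK3 an ITR with 1 mismatch faced one with 2 mismatches over 73 bp. When partners with at most 5 mismatches within 100 bp were counted, PRKCB peak 1 and PAK2 also had one. Both of these partners had 4 mismatches, and the ITR and its partner together spanned 103 bp in PRKCB peak 1 and 57 bp in PAK2. PRKACB and PKN2 had no partner under this limit either. Over the genome, 839 ITRs with 0 or 1 mismatch lay in a peak, and 555 of them (66.2%) had a partner with at most 5 mismatches. That share is counted per ITR and not per peak. The search allowed no gaps, so a partner that has lost or gained a base was not counted.

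The ITRs lay close to the peak centres. Relative to the centre on the reference strand, the best ITR was at 10.5 bp in PRKCB peak 1, at -45.5 bp in PRKCB peak 2 and at 24.5 bp in PRKACB. It was at -23.5 bp in PKN2, at -63.5 bp in PAK2 and at 11.5 bp in STK3. The partner in PRKCB peak 2, with 2 mismatches, was at 1.5 bp and so nearer to the centre than the ITR with 0 mismatches. The median distance was 24 bp for the 6 peaks and 29.5 bp for the 323 other intron peaks with an ITR. PAK2 was the single peak of the 6 with its best ITR more than 50 bp from the centre. The lists give no summits, and peak limits fall on steps of 100 bp, which bounds the precision of these offsets.

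**Figure D1:**
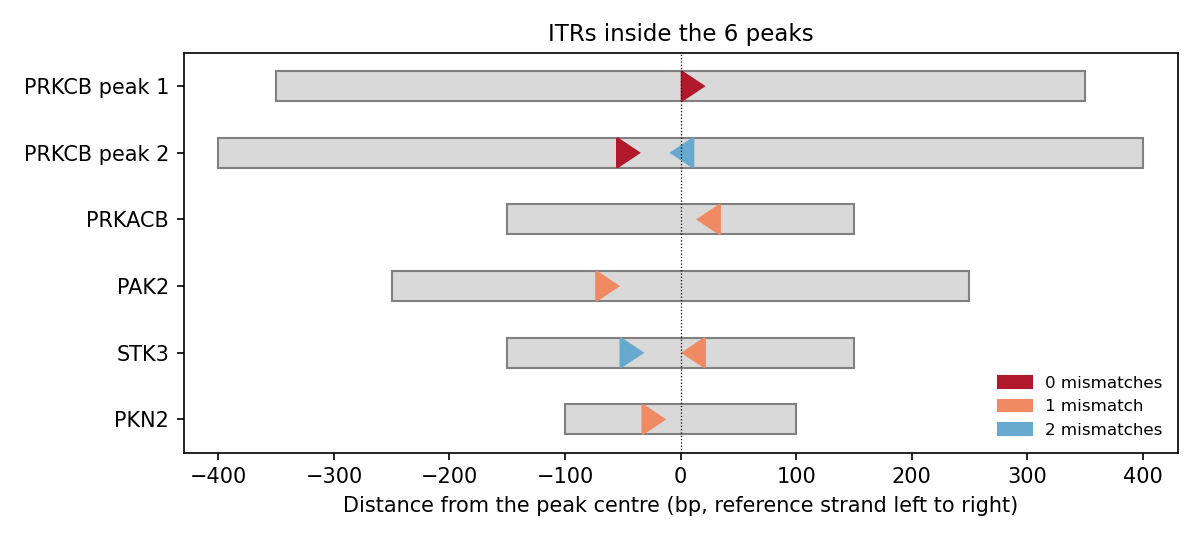
The 6 peaks drawn as grey bars around their centre (x axis, distance in bp), with each ITR as a triangle pointing along its strand and coloured by its mismatches to the consensus. PRKCB peak 2 and STK3 show 2 ITRs facing each other, and the other peaks show 1.

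PRKCB encodes protein kinase C beta, a kinase activated by calcium and diacylglycerol. The gene (ENSG00000166501.14) spans 384629 bp on the plus strand of chromosome 16, from 23835983 to 24220611. Its peaks lay at 24012901 to 24013600 (700 bp wide) and at 24020001 to 24020800 (800 bp wide). Both were assigned to intron 3 of 16 of NM_002738, which is 43545 bp long. They were 6400 bp apart from edge to edge, and their ITRs with 0 mismatches were 7094 bp apart and on the same strand as the gene. The peak centres were 18884.5 and 11734.5 bp from the nearest intron end, at 56.6% and 73.0% of the intron length from its 5′ end. In the canonical transcript, whose protein has 673 residues, the intron follows the codon of residue 96. Of the 327 introns with a peak, only 3 held 2 peaks and none held more. The gap in PRKCB was the smallest of these 3, and the largest was 74400 bp. In 2 of the 3 introns, PRKCB included, both peaks had an ITR with 0 mismatches. Among the 340 protein-coding genes with a peak, 17 had 2 peaks and 1 had more.

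PRKACB encodes the beta catalytic subunit of the cAMP-dependent protein kinase. The gene (ENSG00000142875.21) lies on the plus strand of chromosome 1 from 84078062 to 84238498 and has many alternative first exons, with 15 different transcript starts in GENCODE. The peak lay at 84183701 to 84184000 and was 300 bp wide. It was assigned to intron 5 of 10 of NM_001242861, from 84182329 to 84184036. The same intron is intron 3 of 9 in the canonical transcript and intron 2 to 6 in the 15 protein-coding transcripts, all of which span it. At 1708 bp it was the shortest intron of the 6 peaks, and only 16 of the 330 intron peaks lay in a shorter one. The peak ended 36 bp before the end of the intron, and its centre was 185.5 bp from that end. Its centre was also 2290.5 bp downstream of the nearest transcript start of the gene, at 84181560. For the other 5 peaks the nearest start of the same gene lay downstream, and the closest of these peaks, PRKCB peak 2, had its centre at -11579.5 bp from it. The canonical protein has 398 residues, and the intron follows the codon of residue 126. PRKACB was the only one of the 6 peaks whose best ITR was on the strand opposite to the gene.

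PKN2 encodes a protein kinase C-related kinase. The gene (ENSG00000065243.20) lies on the plus strand of chromosome 1 from 88684222 to 88836255. Its peak at 88753101 to 88753300 was 200 bp wide, the narrowest width among the intron peaks. It lay in intron 2 of 21 of NM_006256, which is 18933 bp long, and the centre was 7020.5 bp from the nearest intron end. The intron interrupts the coding sequence 1 base after the codon of residue 116 of 984.

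PAK2 encodes a p21-activated kinase, an effector of the GTPases RAC and CDC42. The gene (ENSG00000180370.10) lies on the plus strand of chromosome 3 from 196739857 to 196832647. The peak at 196774701 to 196775200 was 500 bp wide and lay in intron 1 of 14 of NM_002577. This intron of 42468 bp is the longest of the gene and precedes the whole coding sequence. The peak centre was 35093.5 bp from the gene start and 7674.5 bp from the nearest intron end.

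STK3, also called MST2, encodes a kinase of the Hippo pathway, which restrains cell proliferation. The gene (ENSG00000104375.17) lies on the minus strand of chromosome 8 from 98371228 to 98942827 and, at 571600 bp, was the longest of the 5. Its peak at 98709801 to 98710100 was 300 bp wide and lay in intron 4 of 10 of NM_006281, which is 41964 bp long. The centre was 2638.5 bp from the 3′ end of the intron. The intron follows the codon of residue 117 of 491.

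**Figure D2:**
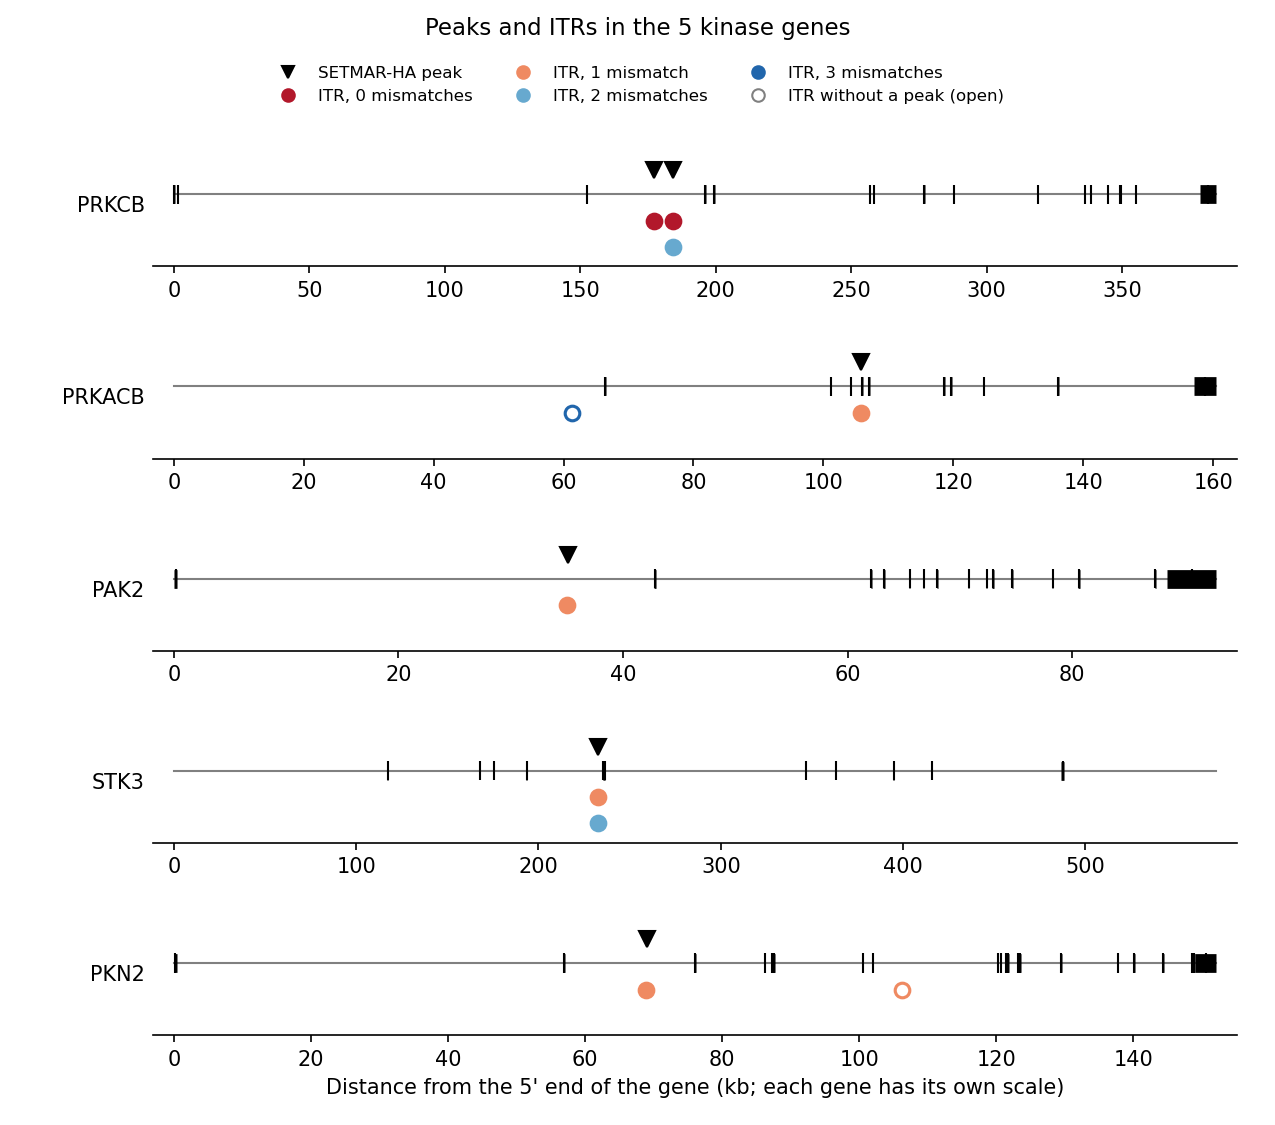
Maps of the 5 genes from their 5′ end (x axis, distance in kb, 1 scale per gene) with the exons of the canonical transcript as black marks, peaks as triangles and ITRs as circles coloured by mismatches. Narrow exons are drawn with a minimum width, ITRs of a pair are set below each other, and open circles in PRKACB and PKN2 mark the 2 ITRs without a peak.

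The widths of the 6 peaks covered most of the range seen in introns. Their median of 400 bp equalled the median of the 324 other intron peaks, whose interquartile range was 300 to 600 bp. Among the 330 intron peaks, PRKCB peak 2 was narrower than 3 and PRKCB peak 1 narrower than 10. PAK2 was wider than 187 of them, PRKACB and STK3 were wider than 46, and PKN2 was wider than none. These widths come from the same list that chose the members, so no test was made.

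Set beside peaks with the same best ITR, PRKCB and PAK2 were at the wide end and PKN2 at the narrow end. The 139 intron peaks whose best ITR had 0 mismatches had a median width of 500 bp and a range of 200 to 900 bp, and only 1 of them was wider than PRKCB peak 2. The 80 intron peaks whose best ITR carried G18A alone had a median width of 300 bp and a range of 200 to 600 bp. Of these, 3 were wider than the PAK2 peak and 59 were wider than the PKN2 peak. PAK2 and PKN2 shared all 19 letters of the ITR and differed by 300 bp in peak width, with 500 bp in PAK2 and 200 bp in PKN2. The decayed partner was present in PAK2 and not in PKN2, and its part in the width was not tested. In the counts that follow, a pair needs a partner with at most 3 mismatches within 500 bp. PAK2 thus counts as without a pair, and the counts do not bear on decayed partners like its own. Intron peaks with 1 mismatch had a median width of 400 bp with an inverted pair (92 peaks) and 300 bp without (68 peaks). With 0 mismatches the median was 500 bp both with a pair (83 peaks) and without (56 peaks).

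**Figure D3:**
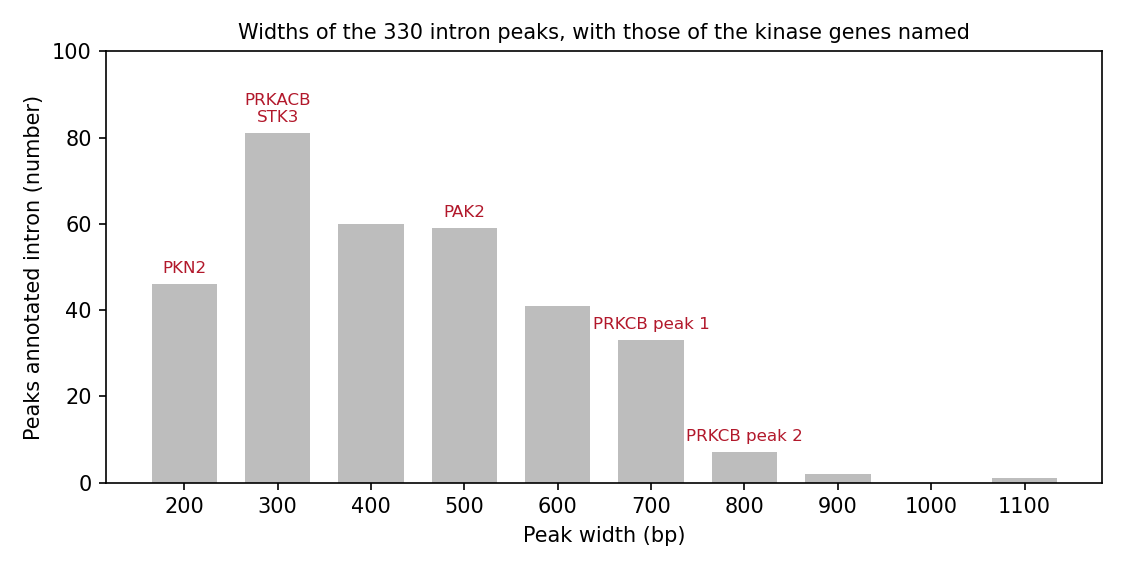
Number of intron peaks (y axis) at each peak width (x axis, bp) among the 330 intron peaks, with the peaks of the kinase genes named above the bar they belong to. PKN2 stands at the narrowest width, and both PRKCB peaks stand among the widest.

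All 6 peaks lay beyond the midpoint of their intron in the direction of transcription, from 56.6% of its length in PRKCB peak 1 to 93.7% in STK3. Of the 324 other intron peaks, 163 (50.3%, 95% Wilson interval 44.9 to 55.7) lay before the midpoint. Both PRKCB peaks share 1 intron, so the 6 values stand for 5 introns. The median intron length was 42216 bp for the 6 peaks and 27726.5 bp for the other intron peaks, whose interquartile range was 6874 to 79667 bp. The median distance from the peak centre to the nearest intron end was 7347.5 bp, against 5318.5 bp. PRKACB was the only one of the 6 within 500 bp of an intron end, where 42 of the 324 others also lay. PAK2 was the only one in a first intron, against 106 of the 324. The best ITR had the orientation of the gene in 5 of the 6 peaks and in 183 of the 324 others (56.5%, Wilson interval 51.0 to 61.8). Of these 324 peaks, 323 had an ITR, and the share is taken over all 324. Intervals cover counting error only.

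**Figure D4:**
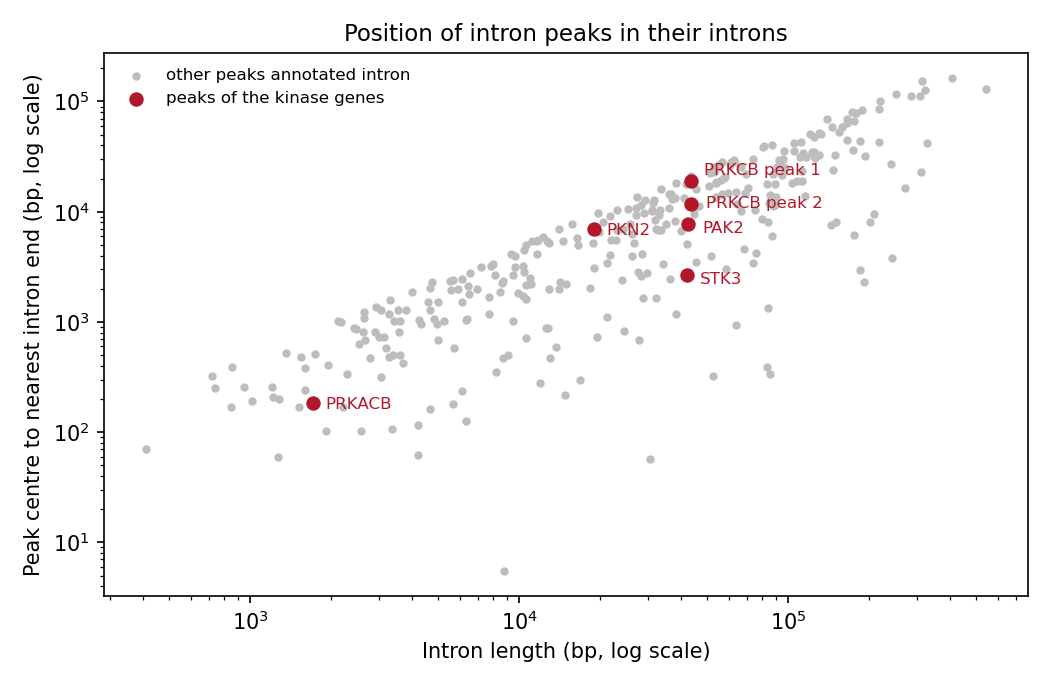
Distance from the peak centre to the nearest intron end (y axis, bp, log scale) against intron length (x axis, bp, log scale) for the intron peaks, with the 6 peaks of the kinase genes in red and the others in grey. PRKACB lies apart in a short intron, and the other 5 lie in introns of 18933 to 43545 bp.

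The next peak outside the gene body was 3801983 bp from PRKCB, 1956362 bp from PRKACB and 1115574 bp from STK3. It was 760822 bp from PKN2 and 421257 bp from PAK2. The median was 1115574 bp for the 5 genes and 1368665 bp for the 335 other protein-coding genes with a peak, whose interquartile range was 574667.5 to 2546528.5 bp. No other gene of the annotation overlapped any of the 6 peaks, and none of the 81 input peaks lay in the 5 gene bodies. The authors had removed ChIP peaks that were shared with the input. The nearest input peak on the same chromosome was 10551701 bp away, from PRKCB peak 2.

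The 5 gene bodies held 10 ITRs with 0 to 3 mismatches, of which 8 lay within 500 bp of a peak. In all, 11.3% of the ITRs of the genome and 12.5% of those inside protein-coding genes did so, but the 5 genes were chosen for having a peak and the count cannot be read against these shares. By mismatches, the share in a peak over the genome was 46.4% at 0, 15.6% at 1, 6.58% at 2 and 4.31% at 3. In the 5 genes it was 2 of 2, 4 of 5, 2 of 2 and 0 of 1. PRKCB had 3 ITRs, PAK2 had 1 and STK3 had 2, all of them in a peak. PRKACB and PKN2 each had 1 ITR in a peak and 1 without. The ITR without a peak in PRKACB had 3 mismatches and was 44307 bp from the nearest peak, which was the peak of the same gene. In PKN2 it had 1 mismatch, the same number as the ITR in the peak, and was 37084 bp away. Both sequences, read 5′ to 3′ with every letter of the ITR in capitals, are shown to compare them with the ITRs in peaks.
PRKACB, ITR without a peak (chr1:84139376-84139394, G4A, T15A and C17A): GGTACAAAAGTAATAGAGG
PKN2, ITR without a peak (chr1:88790384-88790402, T15A): GGTGCAAAAGTAATAGCGG

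The same 19 letters were then looked up over the genome, with every ITR counted that lay within 500 bp of a peak. The consensus itself, as in both PRKCB peaks, occurred 763 times and lay in a peak 354 times (46.4%, 95% Wilson interval 42.9 to 49.9). With no other ITR within 500 bp, as in PRKCB peak 1, it occurred 327 times and lay in a peak 137 times (41.9%, 36.7 to 47.3). The G18A form of PAK2 and PKN2 occurred 900 times and lay in a peak 195 times (21.7%, 19.1 to 24.5). Among the 488 of these with no other ITR within 500 bp, as in PAK2 and PKN2, 67 lay in a peak (13.7%, 10.96 to 17.1). The A7T form of PRKACB occurred only once in the chromosomes searched, so its presence in a peak has no counterpart elsewhere. The STK3 ITR with 1 mismatch occurred 15 times, 7 of them in a peak (46.7%, 24.8 to 69.9), and its partner form occurred 40 times, 7 of them in a peak (17.5%, 8.75 to 32.0). The partner form of PRKCB peak 2, with A12C and C17T, occurred 24 times, and the PRKCB copy was the only one in a peak. None of the 15 copies of it without a neighbouring ITR lay in a peak. The T15A form of PKN2 occurred 11 times and lay in a peak 0 times (Wilson interval 0 to 25.9%). The counts over all copies of a form include the copy in the kinase gene.

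**Figure D5:**
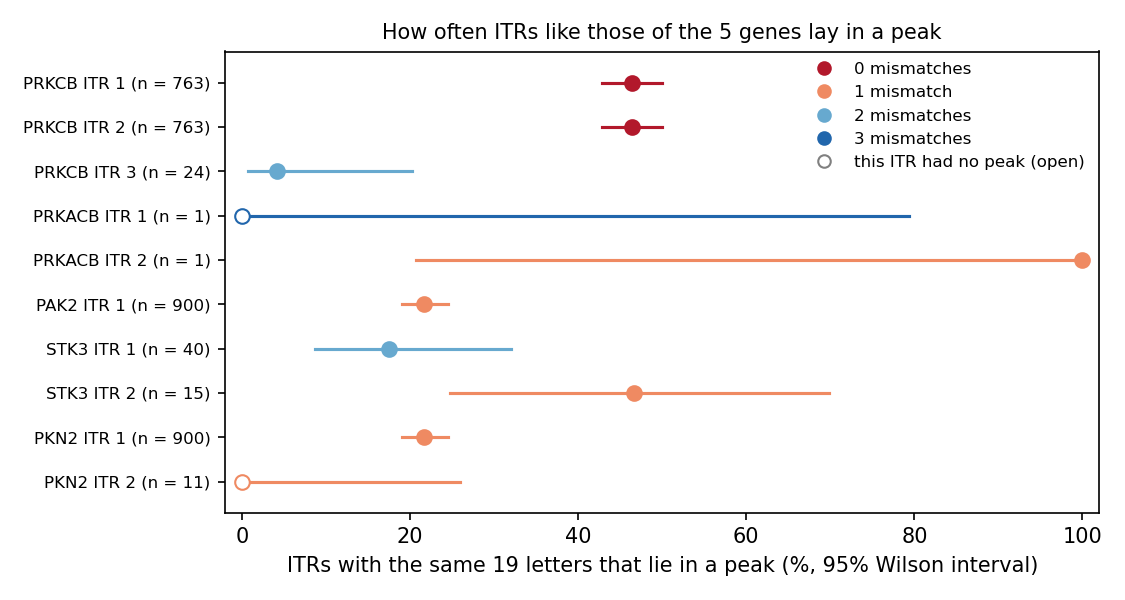
Share of the ITRs with the same 19 letters that lay in a peak (x axis, %, points with 95% Wilson intervals as lines) for each of the 10 ITRs of the 5 genes, numbered along the chromosome, with the number of copies in the genome in brackets. The points for PRKCB ITR 1 and 2 stand at 46.4%, those for PAK2 and PKN2 ITR 1 at 21.7% and the open circle for PKN2 ITR 2 at 0.

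To place the 5 genes among their relatives, 108 kinase genes of the AGC and STE groups were listed from general knowledge, with the 5 genes already known. The 5 genes were the only ones of the 108 whose body overlapped a peak (4.63%), against 1.70% of the 19970 protein-coding genes. The kinase genes were long, with a median of 107065 bp against 27476.5 bp. Among genes at least as long as PAK2, the shortest of the 5, 5 of 57 kinase genes (8.77%) and 236 of 3915 protein-coding genes (6.03%) had a peak. Among genes with an ITR of at most 1 mismatch, 5 of 19 kinase genes (26.3%) and 315 of 1218 protein-coding genes (25.9%) had a peak. The AGC and STE groups were listed because the 5 genes belong to them, and other kinase groups were not counted. The shares of the list thus follow from the choice of the genes and cannot be read against those of all protein-coding genes.

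Within the subfamilies of the 5 genes, relatives with an ITR were few. In the protein kinase C family, PRKCA, PRKCH and PRKCQ held ITRs without a peak, and in the PAK family PAK1 and PAK5 did. PRKACB, PKN2 and STK3 were the only members of their subfamilies with an ITR. Over the whole list, 8 of 68 ITRs (11.8%) lay in a peak, against 12.5% of the ITRs of all protein-coding genes. All 8 lay in the 5 genes, so this share also follows from their choice. Apart from the 5 genes, 23 genes of the list held 58 ITRs, 3 of them with 0 mismatches and 15 with 1. None of the 58 lay in a peak, which was fixed beforehand because these are the listed genes without a peak.

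Of those 58, 8 ITRs in 8 genes had the same 19 letters as the best ITR of PRKCB or of PAK2 and PKN2. The consensus itself was present in 3 genes, as in PRKCB. These were PRKG1, which encodes a cGMP-dependent protein kinase and held 15 ITRs in all, and MAP3K1 and MAP3K5, which encode kinases at the top of MAP kinase cascades. The G18A form was present in 5 genes, PRKCH, ROCK1, MAST4, MAP3K3 and NRK. An inverted partner with at most 3 mismatches within 500 bp was found, without gaps, for 4 of the 8, in PRKG1, ROCK1, MAST4 and NRK. The 8 ITRs were 395065 to 3960644 bp from the nearest peak. In PRKG1 and ROCK1 the ITR had the orientation of the gene, and in the other 6 genes it had the opposite one. The 8 ITRs were picked by their letters, and no share over all ITRs without a peak is given beside this count. It cannot be set against the orientation of the ITRs in peaks, and it was not tested. Chromatin state was not measured in these lists. A missing peak says that none was called among the 764 peaks, not that the site was unbound. The paper also reports a larger set of sites at another significance threshold, and that set was not used here.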

How the data were processed

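SETMAR-HA binding in HAP1 cells was measured by ChIP-seq with an anti-HA antibody, beside an input sample. The files the authors deposited hold positions of peaks, with no unit of signal. Per the submitters' processing notes and the paper's methods, reads were mapped to GRCh38 (hg38) with Bowtie2 version 2.3.4.1, PCR duplicates were removed with Picard, blacklisted regions were filtered, coverage was normalised with deepTools version 3.3.1 in bins of 100 bp smoothed over 300 bp, and peaks were called with MACS2 version 2.2.6. Peaks found in the input were removed with bedtools version 2.29.0, and HOMER categories were assigned. These steps set peak widths in steps of 100 bp and take out sites in blacklisted regions. The methods describe 2 replicate experiments, and whether these were pooled before peak calling is not given in the sources used here. The paper gives the doxycycline dose chosen for ChIP as 0.5, in µg/ml in its results and in µM in its methods.

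ITRs were searched on chromosomes 1 to 22 and X of hg38, with the consensus read from the supplementary table of the study and at most 3 mismatches and no gaps. The search was tested on simulated sequence. Intron limits came from the deposited annotation, and genes from GENCODE release 44. Since the lists hold 1 ChIP sample and the members were chosen for their peaks, no test was made, and values are given as counts, medians and shares with 95% Wilson intervals. The members, the kinase list and the measures were chosen with earlier results of these data known. The named genes were the 5 member genes, all ITRs in them and any listed kinase gene with a peak. NTRK2 and MAP3K20 were named from the paper. PRKG1, PRKCH, ROCK1, MAST4, MAP3K1, MAP3K3, MAP3K5, NRK and the relatives with an ITR were named after their values were seen. Gene symbols were matched exactly, since PAK2 is also an older name of PKN2. Scripts ran in Python 3.11.15 with matplotlib 3.10.9, scipy 1.17.1, pandas 2.3.3 and numpy 2.4.6. RNA levels, signal tracks and qPCR were not analysed here. The sequences around the ITRs are not reported here.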

Additional observations from a re-analysis of the deposited data

How the results depend on the processing

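With no extension, or with 1000 bp, all 6 peaks kept an ITR and 8 of the 10 ITRs lay in a peak, and limits of 1 or 2 mismatches also left all 6 peaks with an ITR. Allowing 0 mismatches only left 2 peaks with an ITR and 2 ITRs in a peak, and keeping only peaks at least 500 bp wide left 3 peaks and 4 ITRs in a peak. Allowing partners with up to 5 mismatches raised the peaks with paired ITRs from 2 to 4. With 1 peak per gene, the median width of the member peaks was 300 bp, so the equality with the other intron peaks rests on counting both PRKCB peaks. Measured from the peak edge, the median distance to the intron end was 7173 bp. The median intron length of the comparison peaks was 27652 bp with each intron counted once. The width of the comparison peaks and the 5 kinase genes with a peak were the same under the alternatives run for them. No paired analysis was possible because each group has 1 sample. The lists give no depth, so neither a weak site nor an unmapped one can be told from an unbound one. The larger set of sites that the paper reports at another significance threshold was not examined, so every missing peak holds for the list used here only.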

Other observations

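The number of ITRs in a gene can be set beside those of the 5 kinase genes. Of the 1087 protein-coding genes with a single ITR, as PAK2 has, 78 (7.18%) had a peak. Of the 728 genes with 2 ITRs, as PRKACB, PKN2 and STK3 have, 134 (18.4%) had a peak and in 113 both ITRs lay in one, as in STK3. Of the 187 genes with 3 ITRs, 42 (22.5%) had a peak, and in 9 of them (4.81% of the 187) all ITRs lay in a peak, as in PRKCB. ITRs of a pair lie under the same peak, so these counts are not independent.

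The orientation of the ITR relative to the gene was also counted. Of the 139 intron peaks with exactly 1 ITR, 85 had it on the strand of the gene (61.2%, 95% Wilson interval 52.9 to 68.8), as PRKCB peak 1, PAK2 and PKN2 did and PRKACB did not. With 2 or more ITRs, where both strands are usually present, the best ITR was on the strand of the gene in 103 of 190 peaks (54.2%, 47.1 to 61.1). This was seen after the data were examined and was not tested.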
